A study of Mus musculus with 384 samples.

Results

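Lgr6-sorted lung cells that carried much Acta2 mRNA were divided by whether they also carried mRNA of Actc1, the cardiac alpha-actin. Acta2 encodes the smooth muscle alpha-actin by which contractile cells are usually recognised. Members were chosen by their measured Acta2 and Actc1 levels: a cell entered with an Acta2 level of at least 9 on the log2(TPM + 1) scale, where TPM is a depth- and length-normalised share of a cell's transcripts. It was called Actc1-detected with an Actc1 level of at least 1 on the same scale and Actc1-zero with none. This rule took 35 of the 50 Lgr6-sorted cells of mouse 1 and 52 of the 75 of mouse 2 that passed the authors' filter, 87 in all. The series held 380 single-cell wells, and 57 Lgr5-sorted cells also passed. Of the 87, 49 were Actc1-detected, 35 were Actc1-zero and 3 lay above 0 and under 1, which put them in neither group.

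All of the cells came from 2 mice of the Lgr6-EGFP-IRES-CreERT2 knock-in line, in which green fluorescent protein reports activity of the Lgr6 locus. Neither group was treated, both groups carry the same allele, and mice were 7 to 10 weeks old in most of the study's experiments. Lungs were digested with collagenase and dispase, and GFP+ cells without CD31, CD45, CD11b and TER119 were sorted singly and sequenced by a modified Smart-seq2 protocol. Mouse 1 gave 20 Actc1-detected and 15 Actc1-zero cells, and mouse 2 gave 29 and 20. The mouse is the replicate, so every test below compares sums of reads over the cells of a mouse, with the mouse as a block and n = 2 per group.

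Contractile cells of the lung sit in several places. Airway smooth muscle wraps the bronchi and bronchioles, vascular smooth muscle and pericytes surround vessels, and myofibroblasts line alveolar ducts and alveolar entrance rings. They share actin, myosin and their regulators, which are controlled by serum response factor and its partner myocardin. Actc1 is best known from the heart, where it is the main sarcomeric actin, and it is also made in some smooth muscle. Lgr6 is a receptor for R-spondins, secreted proteins that raise Wnt signalling.

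The groups differed in depth and in ribosomal reads, so both are given before the genes. The median cell of mouse 1 had 407647 reads in the Actc1-detected group and 305655 in the Actc1-zero group. In mouse 2 the medians were 1554521 and 1351995 reads. Reads of Rn45s, the ribosomal RNA precursor, made up 36.2% and 27.3% of the summed reads in mouse 1, and 41.1% and 34.3% in mouse 2, each time more in the Actc1-detected group. The part of depth and of Rn45s in the results was not tested beyond the thinned sums and the sums without Rn45s given with them.

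Markers of other lineages were examined in both groups. Pecam1 (endothelium) and Ptprc (leukocytes) had no read, and the authors' filter had removed cells with either. No read of Cdh5 (endothelium), Epcam (epithelium), Notch3, Higd1b or Vtn (pericytes), or Tcf21 or Wnt2 (alveolar fibroblasts) was found in any of these cells. Other genes of the last 2 lists were found: the pericyte gene Kcnj8 had reads in 39 of 49 and 32 of 35 cells, and Abcc9 in 30 and 25. The 13 alveolar fibroblast genes summed to over 100 TPM in 12 of 20 and 11 of 29 Actc1-detected cells and in 6 of 15 and 1 of 20 Actc1-zero cells. Summed over the 10 epithelial markers, a level over 100 TPM was reached in 2 of 20 and 1 of 29 Actc1-detected and in 2 of 15 and 1 of 20 Actc1-zero cells. For the 6 immune markers the numbers were 0 and 2 against 1 and 1, and for the 5 glial markers 2 and 1 against 1 and 8. The part of these cells in the results was not tested. Pdgfra, the receptor by which alveolar myofibroblasts are usually recognised, had reads in 3 of 49 Actc1-detected and 2 of 35 Actc1-zero cells. Both groups are therefore named by their rule, and the Actc1-zero cells not as myofibroblasts. Other genes of the duct myofibroblast list were common in both groups, Mustn1 in 48 of 49 and 31 of 35 cells, Aspn in 43 and 29, and Tgfbi in 41 and 27.

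Actc1 varied widely among the cells that had it. Among Actc1-detected cells it ranged from 4.43 to 14.92 in mouse 1 (median 12.83) and from 4.18 to 14.17 in mouse 2 (median 11.65). The Actc1-zero cells held no Actc1 read at all, although each held between 71 and 18104 reads of Acta2. Just inside the threshold stood cells at 4.18 (mouse 2), 4.43 and 5.26 (both mouse 1), on 4, 1 and 1 reads of Actc1. Just outside it stood the 3 cells at 0.31, 0.59 and 0.9997, on 1, 1 and 2 reads of Actc1. Those 3 cells were deeper, with 1537175, 1246051 and 1705748 reads in all. The cells at 4.43 and 5.26 had 83553 and 45242. For Acta2 the value just below the limit was 8.98 and the value just above it 9.19. Because these genes chose the groups, their levels are a description.

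Acta2 itself was higher in the Actc1-detected cells. Its median was 12.57 against 11.25 in mouse 1 and 13.09 against 10.92 in mouse 2, and the lowest Actc1-detected cell stood at 10.31. Below Acta2 of 10 there was no Actc1-detected cell, so the groups overlap in Acta2 only above that level.

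**Figure D1:**
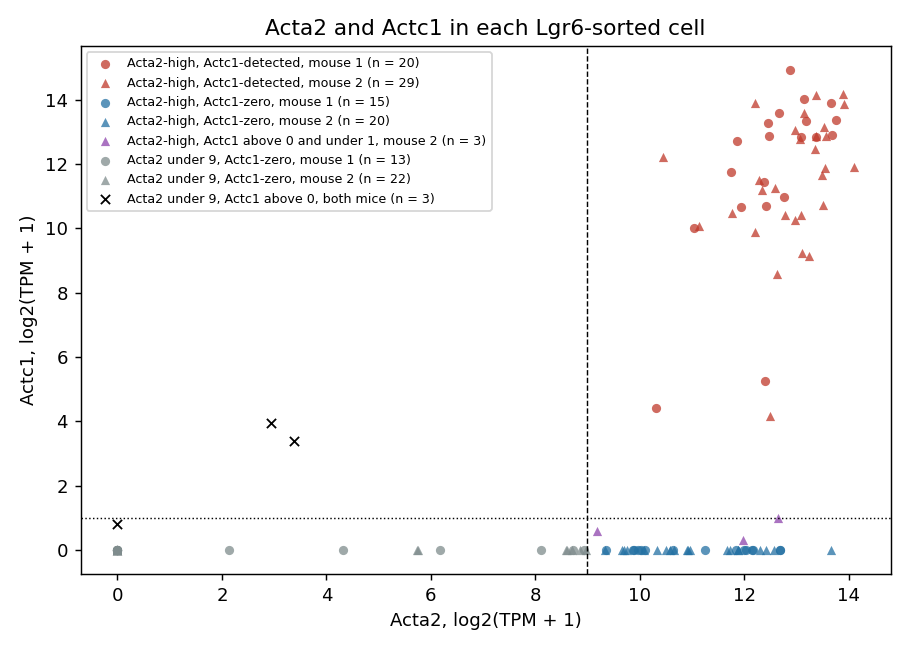
Actc1 level (y axis, log2(TPM + 1)) against Acta2 level (x axis, log2(TPM + 1)) in each kept Lgr6-sorted cell, with circles for mouse 1 and triangles for mouse 2. The dashed line marks Acta2 of 9 and the dotted line Actc1 of 1. Right of the dashed line the 49 Actc1-detected cells stand at 4.18 or above, 3 cells lie above 0 and under the dotted line, and the 35 Actc1-zero cells lie along 0. The crosses left of the dashed line are the 3 cells with Acta2 under 9 and Actc1 at 0.81, 3.39 and 3.96.

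The share of Acta2-high cells with Actc1 was 57.1% in mouse 1 (20 of 35 cells, exact Clopper-Pearson 95% interval 39.4 to 73.7%) and 55.8% in mouse 2 (29 of 52 cells, 41.3 to 69.5%). These intervals cover counting error only. With every cell thinned to 89000 reads, which left out 8 cells of mouse 1 and 1 of mouse 2 that were shallower, the shares were 51.9% (14 of 27) and 54.9% (28 of 51). Raising the Acta2 limit to 11 gave 70.4% and 73.7%. Among the Lgr6-sorted cells with Acta2 under 9, 3 had Actc1 above 0 and 35 had none. Among the 57 Lgr5-sorted cells 13 were Acta2-high, of which 4 were Actc1-detected. Actc1 was also found in Lgr5-sorted cells with Acta2 under 9. Some of these had Acta2 at 0, among them cells with Actc1 at 5.39, 7.26 and 6.75 on 9, 7 and 5 reads. The filter had removed 8 Lgr6 wells that met the rule for Actc1-detected and 16 that met it for Actc1-zero.

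Actc1 (GRCm38 chr2:114047282-114053548, minus strand) and Acta2 (chr19:34241090-34255590, minus strand) are paralogs, so the words on which kallisto assigns reads were compared. Of the 1587 words of 31 bases in the annotated Actc1 transcripts, 0 occur in Acta2, 10 in Actg2, 2 in Actb and 0 in Acta1 or Actg1. Actg2, the enteric smooth muscle actin, shares 10 of its 1573 words with Actc1, or 0.636%, and its value is uncertain to that extent.

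Promoters of the contractile genes were read for the CArG box, the 10-base element bound by serum response factor, because these genes differed together. The RefSeq table (build GRCm38.p6, 250 bases before to 50 after each annotated start) held 12 of the 16 contractile genes and 4 of the 6 actins. A CArG box, which reads alike on both strands, was present in 1 of those 12 contractile promoters, in 3 of the 4 actin promoters, and in 488 of 27025 genes in the table, or 1.81%. It was also present in 1 of 13 immediate early promoters (Zfp36), and in 0 of 14 matrix and 0 of 4 adventitial promoters. The stretches with a box are shown for Actc1, which divides the groups, for Myl9, and for the actins Acta1 and Actg1, each 5′ to 3′ on the gene's strand with the box in capitals.
Actc1 (chr2:114052903-114052932, minus strand): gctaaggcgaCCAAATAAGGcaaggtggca
Myl9 (chr2:156775293-156775322, plus strand): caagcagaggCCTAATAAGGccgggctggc
Acta1 (chr8:123894829-123894858, minus strand): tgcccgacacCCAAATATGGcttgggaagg
Actg1 (chr11:120348566-120348595, minus strand): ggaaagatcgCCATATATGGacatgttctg
The Actc1 box starts 47 bases before the RefSeq start. The stretch lies inside the GENCODE span of Actc1 given above, which begins farther upstream. Acta1, the skeletal actin, carries a box but had 4 and 9 reads in the Actc1-detected sums and 0 and 4 in the Actc1-zero sums. A match is only a match of letters in this window, and no match says only that the letters are not in it.

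Of 11971 genes tested between Actc1-detected and Actc1-zero cells by edgeR's quasi-likelihood test, 0 were higher and 0 were lower at a Benjamini-Hochberg adjusted p under 0.05, a background of 0% in each direction. At an unadjusted p under 0.05 there were 682 genes, of which 424 were higher (3.54% of those tested) and 258 lower (2.16%) in Actc1-detected cells. By DESeq2 389 genes were higher and 244 lower at the adjusted threshold, by limma on scaled sums 7 and 3, and by limma on mean levels per mouse 17 and 1. After thinning every cell to the same number of reads, which gives the cells equal weight, edgeR called 16 genes higher and 8 lower. The verbs below follow the main test, in which no single gene passed, and calls on the thinned cells are named as such.

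The contractile genes were higher in Actc1-detected cells as a list. All 16 tested members had higher sums in both mice, against 30.5% of all genes tested, and 15 of the 16 had an unadjusted p under 0.05. Pgm5, counted among the 15, had 1511 and 911 reads in the Actc1-detected sums and 2 and 4 in the Actc1-zero sums. It passed the filter on low counts through the Actc1-detected cells, which fixed its direction. The median log2 fold change of the 16 was 1.94, beside 0.27 over all genes tested. With library sizes in place of TMM factors the medians were 1.74 and 0.06, a difference of about the same size. None of the 16 passed the adjusted threshold, and 10 of them did so on the thinned cells. Acta2 was higher in the same group, and its part was not tested beyond the comparison at a higher Acta2 limit given below.

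Cnn1 (calponin 1, an actin-binding regulator of contraction, chr9:22099216-22109630) was the gene most like Actc1 across these cells. In mouse 1 its level ran from 7.96 to 13.76 with a median of 11.60 in Actc1-detected cells, and from 0 to 10.05 with a median of 0 in Actc1-zero cells. In mouse 2 it ran from 0 to 13.12 with a median of 10.96, and from 0 to 11.93 with a median of 0. Reads of Cnn1 were found in 48 of 49 Actc1-detected and 10 of 35 Actc1-zero cells, and on thinned cells in 100% and 15.4% of cells in mouse 1 and 96.6% and 31.6% in mouse 2. The summed reads gave 3911 against 125.3 CPM (reads scaled to a common library size) in mouse 1 and 2974 against 239 in mouse 2. The log2 fold change was 4.30 (SE 0.40, adjusted p = 0.287 by edgeR), and on thinned cells 4.28 (adjusted p = 0.0118). One cell held 69.9% of the Cnn1 reads of the Actc1-zero cells of mouse 1.

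The myosin and tropomyosin genes differed by less, and most Actc1-zero cells also carried them. Myl9, the regulatory light chain of smooth muscle myosin (chr2:156775420-156781658), had medians of 13.01 against 10.93 in mouse 1, and in mouse 2 ranged from 11.66 to 13.97 against 0 to 13.02 (median 10.55). Its log2 fold change was 2.22 (SE 0.16), and the ratio was nearly equal in the mice, at 2.23 and 2.22. Reads were found in every Actc1-detected cell and in 14 of 15 and 17 of 20 Actc1-zero cells.

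Myh11, the smooth muscle myosin heavy chain, had a log2 fold change of 2.40 (SE 0.21), with medians of 9.49 against 7.82 and 9.50 against 7.57. Tpm1 and Tpm2, tropomyosins that lie along the actin filament, gave 1.96 (SE 0.18) and 2.48 (SE 0.27). Des, desmin, the intermediate filament of muscle, gave 2.27 (SE 0.18), and Flna, a crosslinker of actin filaments, 1.81 (SE 0.17). Their adjusted p-values by edgeR ran from 0.255 for Myl9 to 0.313 for Tpm2. All 5 passed on the thinned cells, as did Myl9, Cnn1, Actg2, Tagln and Mylk.

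Actg2 had higher sums in the Actc1-detected cells of both mice. Its medians were 11.49 against 8.73 in mouse 1 and 11.98 against 4.86 in mouse 2, and it had reads in 49 of 49 and 20 of 35 cells. The log2 fold change was 2.16 (SE 0.28, adjusted p = 0.401 by edgeR; on thinned cells 2.49, adjusted p = 0.00754). Of the cytoplasmic actins, Actb gave 0.53 (SE 0.18) and Actg1 -0.66 (SE 0.22), with unadjusted p of 0.0353 and 0.03, and Actg1 changed sign when cells were averaged on the log scale. Tagln (transgelin) gave 1.69 (SE 0.27) and Mylk, the kinase of the myosin light chain, 1.68 (SE 0.25).

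**Figure D2:**
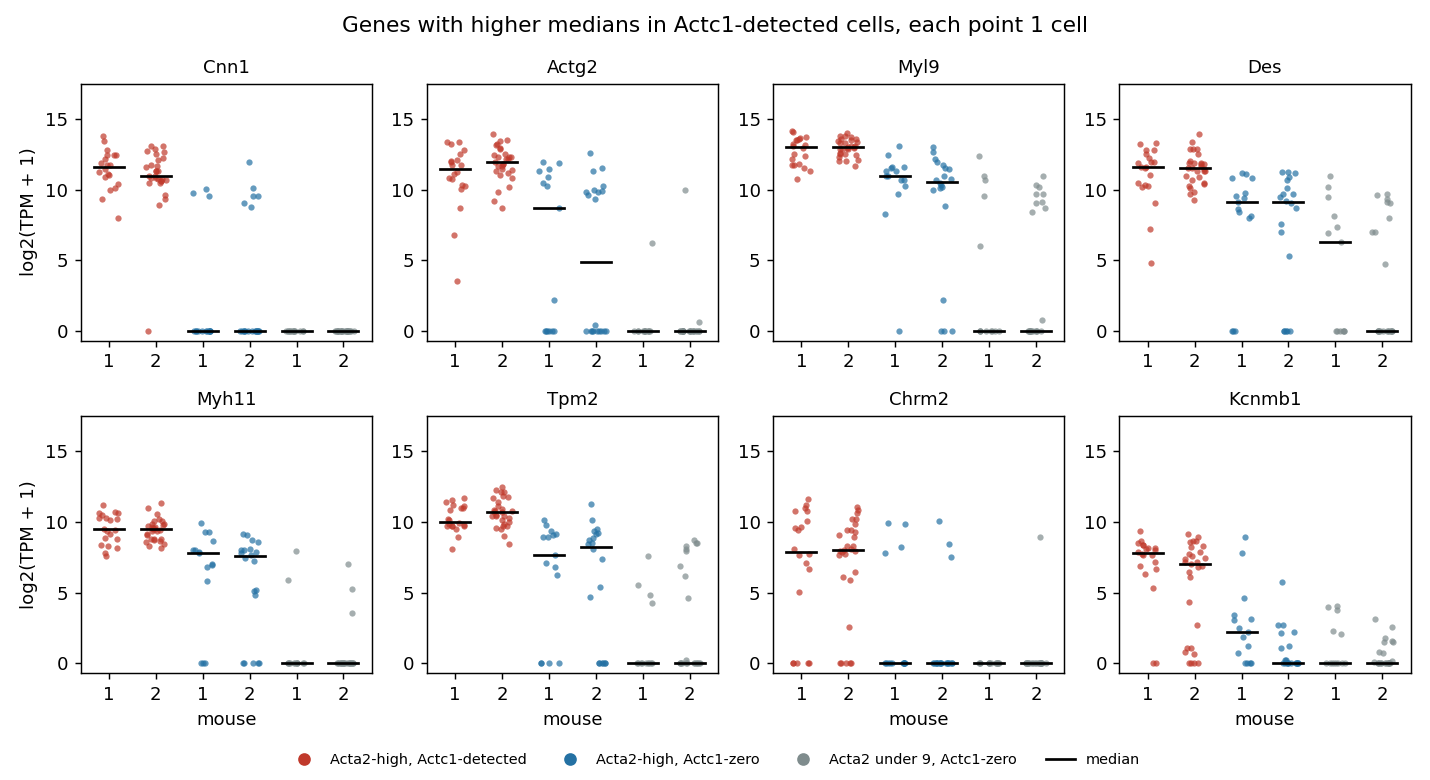
Level (y axis, log2(TPM + 1)) of 8 genes in each cell of mouse 1 and mouse 2 (x axis), coloured by group, with the median as a bar. Cnn1 is at 0 in most Actc1-zero cells and near 11 in Actc1-detected cells, Myl9, Des, Myh11 and Tpm2 shift by about 2 units. In the Acta2-under-9 cells the medians of Cnn1, Actg2, Myl9, Myh11, Tpm2 and Chrm2 are at 0 in both mice.

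Myocd, myocardin, the coactivator of serum response factor, had medians of 8.22 against 6.97 in mouse 1 and 8.02 against 6.78 in mouse 2, with a log2 fold change of 1.31 (SE 0.36, unadjusted p = 0.0157). It had reads in 47 of 49 and 27 of 35 cells. Synpo2, an actin-bundling protein, gave 1.93 (SE 0.35). Lmod1, leiomodin, was the member over the unadjusted threshold, at 1.37 (SE 1.13, p = 0.28), and 1 cell held 94.2% of its reads in the Actc1-zero cells of mouse 1.

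The contractile genes were also compared with the groups closer in Acta2. With Acta2 of at least 11, a limit chosen after seeing the data, 19 and 28 Actc1-detected cells faced 8 and 8 Actc1-zero cells, with Acta2 medians of 12.67 against 12.09 and 13.09 against 12.10. All 16 members had log2 fold changes above 0, and 13 were higher at an unadjusted p under 0.05. Of 11026 genes tested at this limit, 249 were higher at that threshold. The median log2 fold change was 1.495 for the list beside 0.77 over all genes. These medians lay closer together than in the main comparison, where they were 1.94 and 0.27. Cnn1 was at 3.66 and was above 0 in 46 of 47 against 7 of 16 cells. Actg2 was at 1.56 and Tagln at 1.24, and no gene passed the adjusted threshold.

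Genes of airway smooth muscle and of its tone went the same way where they were found. Of the 12 airway genes, which share Cnn1, Des and Mylk with the contractile list, 7 were higher and 1 was lower at an unadjusted p under 0.05. Chrm2, the M2 muscarinic acetylcholine receptor of airway muscle (chr6:36388084-36528414), had reads in 39 of 49 Actc1-detected and 8 of 35 Actc1-zero cells. Its medians were 7.90 against 0 in mouse 1 and 8.02 against 0 in mouse 2, and its log2 fold change was 3.61 (SE 0.40, adjusted p = 0.313 by edgeR; on thinned cells 2.69, adjusted p = 0.03). Chrm3, the other muscarinic receptor of that muscle, had reads in 5 and 1 cells. Kcnmb1, the smooth muscle subunit of the large-conductance potassium channel, had medians of 7.81 against 2.20 and 7.00 against 0, with a log2 fold change of 3.79 (SE 1.13, unadjusted p = 0.0208), and 1 cell held 92.1% of its reads in the Actc1-zero cells of mouse 1. In the tone list of 20 genes, of which 18 were tested, Chrm2 and Kcnmb1 were the 2 with an unadjusted p under 0.05. Pde5a, Ednra and Ednrb, which set the response to nitric oxide and endothelin, gave 1.13 (SE 0.49), -0.54 (SE 0.35) and -0.16 (SE 0.27), and Ednrb changed sign on thinned cells.

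Itga8, the alpha8 integrin chain (chr2:12106632-12301922), had reads in 11 of 20 and 22 of 29 Actc1-detected cells, and in 4 of 15 and 1 of 20 Actc1-zero cells. The sums were 270 against 1.73 CPM in mouse 1 and 406 against 0.835 in mouse 2, a log2 fold change of 8.11 (SE 0.91, adjusted p = 0.313 by edgeR). It was also found in 5 of 13 and 10 of 22 Acta2-under-9 cells.

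Lgr6, by whose locus the cells were sorted, had reads in 24 of 49 Actc1-detected and 8 of 35 Actc1-zero cells. Its sums were 82.9 against 28.3 CPM in mouse 1 and 97.2 against 18.4 in mouse 2 (log2 fold change 1.97, SE 1.12, unadjusted p = 0.141). One cell held 99.6% of the Lgr6 reads of the Actc1-zero cells of mouse 1, and the difference did not pass even the unadjusted threshold. Lgr5 had reads in 17 and 9 cells, Gli1, a target of hedgehog signalling, in 14 and 11, and the pericyte genes Cspg4 and Pdgfrb in 21 and 8 and in 13 and 13.

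Outside the lists, Cpe, carboxypeptidase E, a processor of peptide hormones, was found in 23 of 49 Actc1-detected cells and had no read in any Actc1-zero cell. In the sums it was at least 3575-fold higher, with the zero taken as 3 reads over the group. That bound covers counting of reads only. Cpe passed the filter on low counts through the Actc1-detected cells, which fixed its direction. Ogn, osteoglycin, a small matrix proteoglycan, had medians of 11.59 against 9.44 and 11.58 against 8.50 and a log2 fold change of 1.64 (SE 0.26, adjusted p = 0.522 by edgeR; on thinned cells 1.31, adjusted p = 0.0425). Postn, periostin, had reads in 25 and 4 cells, and Dstn, destrin, an actin-severing protein, gave 1.31 (SE 0.18). Pcp4l1, found in 25 and 2 cells, gave 4.51 (SE 0.64). Ogn, Postn, Dstn and Pcp4l1 were named after their values were seen, since an alternative called them or came near.

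Ranked over 8431 genes by Spearman's rho with Actc1 in the Acta2-high cells of each mouse, averaged over the mice, the genes most like Actc1 were Cnn1 (0.86), Myl9 (0.80), Tpm2 (0.78), Flna (0.78), Myh11 (0.77), Des (0.74), Acta2 (0.71), Tpm1 (0.70), Tagln (0.70) and Mylk (0.69). The cells of a mouse share the animal and differ in depth, so these are descriptions over 35 and 52 cells. Within the Actc1-detected cells alone, Actc1 and Cnn1 went together with rho of 0.82 in mouse 1 and 0.62 in mouse 2, and Actc1 and Acta2 with 0.73 and 0.45. The 4 Actc1-detected cells with Actc1 under 9, at 4.18 to 8.59, had Cnn1 between 9.95 and 10.75, each below the median of its mouse, and Des in the cell at 5.26 was 4.77, the lowest of its group.

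Mgp had higher sums in the Actc1-zero cells of both mice. Mgp, matrix Gla protein, an inhibitor of calcification and of BMP ligands (chr6:136872435-136875823), had medians of 13.85 against 10.63 in Actc1-detected cells in mouse 1 and 14.05 against 11.59 in mouse 2. It ranged from 11.37 to 16.36 and from 2.73 to 16.79 in Actc1-zero cells, and from 0 to 15.33 and from 0 to 15.54 in Actc1-detected cells, so the groups overlapped. The sums were 4169 against 689 CPM and 4315 against 1320, a log2 fold change of -2.15 (SE 0.26, adjusted p = 0.343 by edgeR; on thinned cells -1.83, adjusted p = 0.00754). Mgp was also the 1 gene called lower when levels were averaged per mouse.

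Hhip, a hedgehog-binding protein of airway muscle and of myofibroblasts, was present in all 35 Actc1-zero and in 46 of 49 Actc1-detected cells. Its medians were 10.26 against 9.91 and 10.33 against 9.07, and its log2 fold change of -0.45 (SE 0.14, unadjusted p = 0.0214) was lower in the Actc1-detected cells of both mice. Kcnj8, a subunit of the ATP-sensitive potassium channel of pericytes and vascular muscle, gave -1.72 (SE 0.46), with medians of 9.09 against 7.01 and 9.61 against 8.82. Its partner Abcc9 gave -1.11 (SE 0.49, unadjusted p = 0.0756). Itga7, the other pericyte list gene under the unadjusted threshold, lay in the opposite direction, at 2.98 (SE 0.87). Over the 12 tested members of that list the median log2 fold change was 1.20.

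Other genes with low p lay in the same direction as Mgp. Enpp2, autotaxin, which makes lysophosphatidic acid, gave -2.01 (SE 0.21), with medians of 10.32 against 8.74 and 10.27 against 7.07. Thbs1, thrombospondin 1, gave -2.48 (SE 0.31) and Pde4b, a phosphodiesterase of cyclic AMP, -3.62 (SE 0.43). Gsn, gelsolin, gave -2.09 (SE 0.34) and Gpx3, a secreted glutathione peroxidase, -3.25 (SE 0.50), these 2 named after their values were seen. All 5 were called on the thinned cells, with adjusted p from 0.00293 for Thbs1 to 0.0326 for Gsn.

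**Figure D3:**
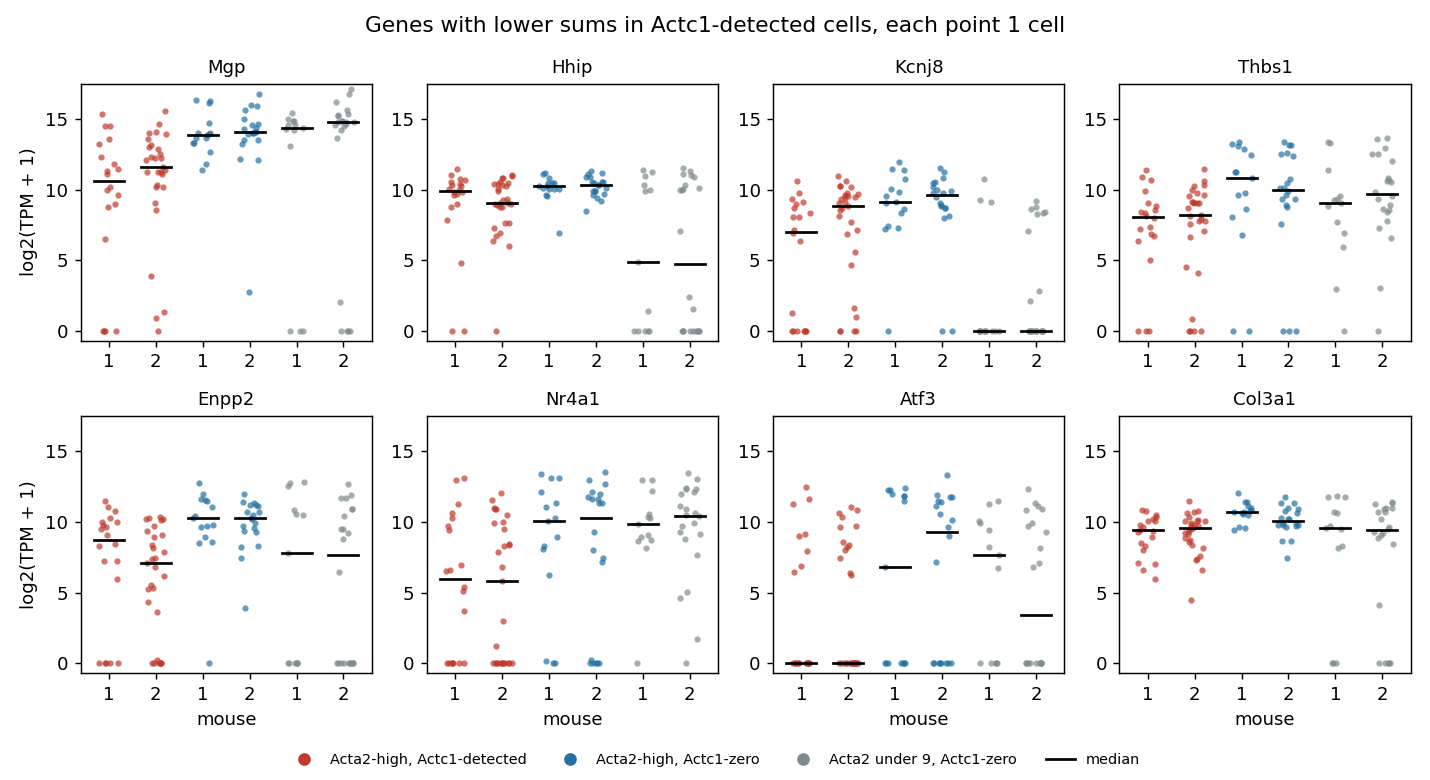
Level (y axis, log2(TPM + 1)) of 8 genes with lower sums in Actc1-detected cells, by mouse (x axis) and group, with the median as a bar. Mgp is near 14 in Actc1-zero cells and near 11 in Actc1-detected cells, Hhip is close to 10 in both, and Nr4a1 and Atf3 spread from 0 to over 12 in every group.

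Immediate early genes, which respond within minutes to stress and to tissue digestion, were lower in Actc1-detected cells. Of 15 tested, 8 had an unadjusted p under 0.05, all lower, beside 2.16% of all genes, and 9 were lower in both mice, beside 24.97% of all genes. The median log2 fold change was -1.18. It was -0.64 in mouse 1 alone, where 5 of 15 were above 0, and -1.55 in mouse 2 alone. Atf3 gave -2.37 (SE 0.27), Egr1 -1.46 (SE 0.17), Nr4a1 -1.63 (SE 0.20), Zfp36 -2.88 (SE 0.41) and Socs3 -2.24 (SE 0.35), and Atf3 and Zfp36 passed on thinned cells. The regulators of NF-kappaB Nfkbia and Nfkbiz lay the same way, at -2.68 (SE 0.35) and -4.22 (SE 0.58). So did the adhesion molecule Icam1, at -5.34 (SE 0.75), though Icam1 had reads in only 3 and 10 cells. The list differed at Acta2 of at least 11, where 1 of 15 was lower and 1 higher, with a median of -0.22 and Atf3 at 0.07.

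Genes of adventitial fibroblasts were lower too. Of the 10, 5 were tested and all 5 had an unadjusted p under 0.05 and lay lower in both mice. Dcn, decorin, gave -4.57 (SE 0.84), Col14a1, a collagen, -3.01 (SE 0.74), Mfap5, a microfibril protein, -3.59 (SE 1.05) and Dpt, dermatopontin, -5.47 (SE 1.48). Lum, lumican, had 216 and 1 reads in the Actc1-detected sums and 3531 and 11141 in the Actc1-zero sums. Since these 5 passed the filter on low counts mainly through the Actc1-zero cells, their count is given as a description. A summed level of the 10 genes over 100 TPM was reached in 5 of 20 and 3 of 29 Actc1-detected cells, in 11 of 15 and 13 of 20 Actc1-zero cells, and in 10 of 13 and 16 of 22 Acta2-under-9 cells. Pi16, Clec3b and Ly6a, markers of adventitial cells, had reads in 0 Actc1-detected cells and in at most 1 Actc1-zero cell each. Of the 5, 1 was under the unadjusted threshold at Acta2 of at least 11.

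Of 20 collagens and other matrix genes tested, 3 had an unadjusted p under 0.05, all lower: Mgp, Col3a1 at -1.19 (SE 0.26) and Ltbp4 at -0.78 (SE 0.28). The median of the 20 was -0.08, with the other sign when levels were averaged per mouse (0.32) and with the removed wells added (0.05). Bgn and Sparc, abundant in both groups, gave 0.21 (SE 0.25) and 0.61 (SE 0.24), and Bgn changed sign when levels were averaged per mouse.

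**Figure D4:**
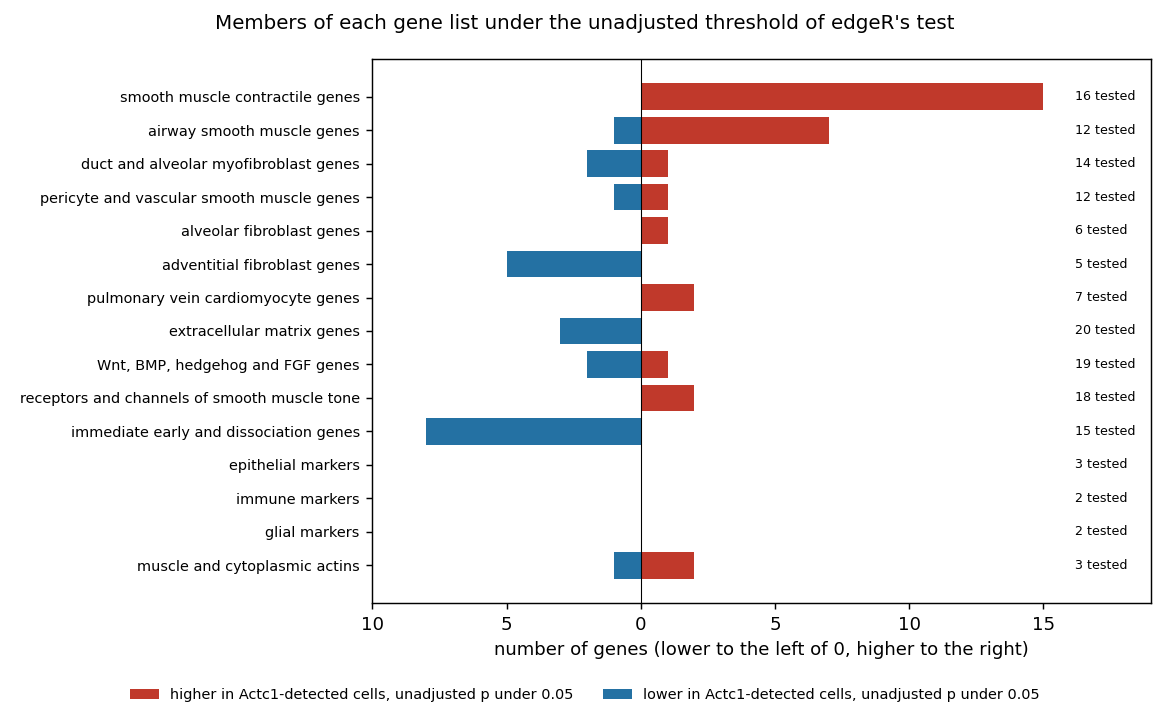
Number of genes in each list (x axis, lower in Actc1-detected cells to the left of 0, higher to the right) with an unadjusted p under 0.05 in edgeR's test, by list (y axis), with the number tested at the right. The contractile list reaches 15 of 16 to the right, and the immediate early list 8 of 15 and the adventitial list 5 of 5 to the left.

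The remaining lists had few members under the threshold. Of 14 duct and alveolar myofibroblast genes tested, Tnc, tenascin C, was higher (1.78, SE 0.55) and Hhip and Fgf18 lower, with a median of -0.19. Fgf18 rested on 2 Actc1-zero cells in each mouse and no Actc1-detected cell. Of 19 tested Wnt, BMP, hedgehog and FGF genes, Nog, a BMP antagonist, was higher on reads from 4 cells, and Hhip and Fgf18 lower. Wnt5a and Ptch1 gave -2.99 (SE 1.22) and -0.29 (SE 0.78). Of 6 tested alveolar fibroblast genes, Col13a1 was higher on reads from 3 cells. Fgf18, Nog and Col13a1 had no read in the group where they were lower and passed the filter on low counts through the other group, which fixed their direction.

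Actc1 is a heart gene, so genes of pulmonary vein cardiomyocytes were examined beside it. Myl7, Sln and Tnnc1 had no read in either group, and Myh6 had reads in 1 Actc1-detected cell. Of 7 tested, Tnnt2, the cardiac troponin T, and Nppa, an atrial peptide, had an unadjusted p under 0.05, both higher. Neither had a read in Actc1-zero cells, so both passed the filter on low counts through the Actc1-detected cells, which fixed their direction. Tnnt2 had reads in 11 of 49 Actc1-detected cells and none in Actc1-zero cells, and Nppa in 3 and none. In the sums Tnnt2 was at least 436-fold higher, a bound that covers counting of reads only. Tnni3, the cardiac troponin I, had reads in 2 of 29 Actc1-detected and 1 of 20 Actc1-zero cells of mouse 2 and in no cell of mouse 1, and Myl4, the atrial light chain, had 96 and 69 reads in the sums of mouse 2 and 1 and 1 in mouse 1. The 11 genes summed to over 100 TPM in 7 of 20 and 10 of 29 Actc1-detected cells and in 0 of 15 and 3 of 20 Actc1-zero cells. The part of such cells or their RNA in the Actc1 levels was not tested.

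**Figure D5:**
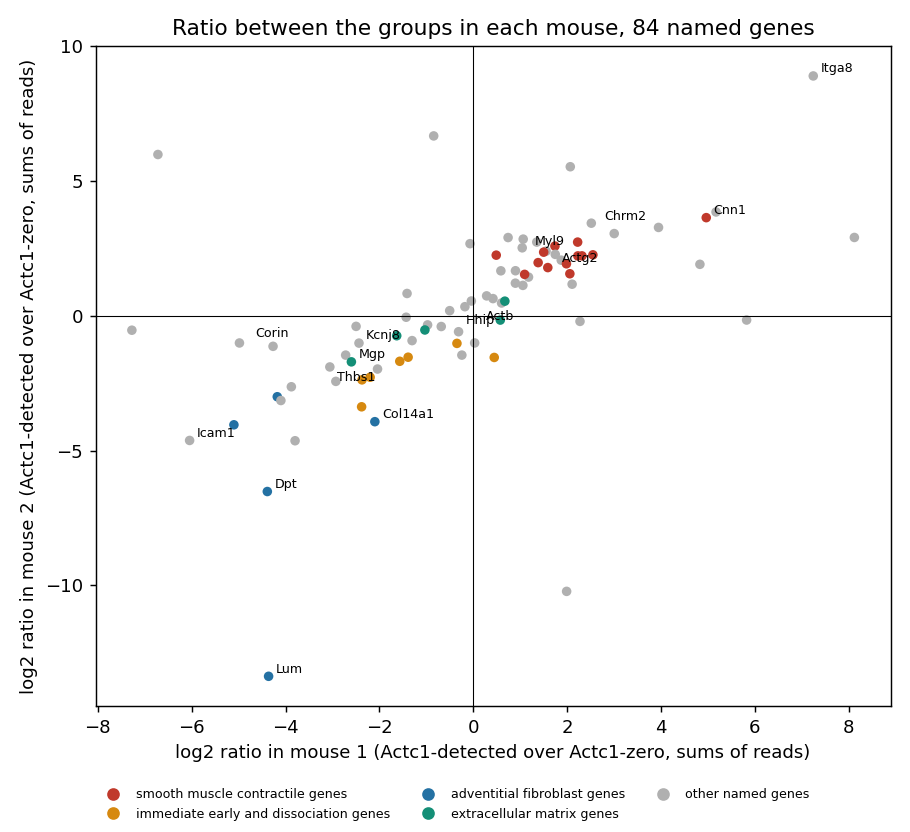
Log2 ratio of summed reads per effective library size, Actc1-detected over Actc1-zero, in mouse 1 (x axis) and mouse 2 (y axis) for the 84 named genes with reads in all 4 sums, coloured by list. Of these, 71 have the same sign in both mice, and the contractile genes lie together at positive values in both.

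The Actc1-zero cells were then compared with the 35 Lgr6-sorted cells with Acta2 under 9 and no Actc1, to see what they share with them. Of 11970 genes tested by edgeR, 1 was higher in Actc1-zero cells (0.00835%) and 16 were lower (0.134%) at the adjusted threshold, and 194 (1.62%) and 605 (5.05%) at an unadjusted p under 0.05. Acta2 chose these groups. The contractile list again lay higher, 10 of 16 under the unadjusted threshold, with a median of 2.46 beside -0.13 over all genes. Myh11 gave 5.20 (adjusted p = 0.164), and Cnn1 was above 0 in none of the 35 Acta2-under-9 cells by level. The median number of these genes with reads was 11 and 11.5 in Actc1-zero cells, between 15 in Actc1-detected and 6 and 7 in Acta2-under-9 cells.

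The 1 gene called higher, named for its call, was Corin, a membrane protease known for activating atrial natriuretic peptide (chr5:72300025-72504473). It had 5935 and 3900 reads in the Actc1-zero sums and 0 and 1 in the Acta2-under-9 sums, from 7 of 15 and 7 of 20 Actc1-zero cells (adjusted p = 0.0319 by edgeR). Corin passed the filter on low counts through the Actc1-zero cells, which fixed its direction. One cell held 67.8% of its reads in mouse 1. It was found in 2 of 20 and 5 of 29 Actc1-detected cells, a log2 fold change of -2.70 (SE 1.001, unadjusted p = 0.0442), and the call was lost without the block (adjusted p = 0.0724).

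Of the 10 epithelial markers, all tested, 3 were among the 16 genes called lower, the surfactant genes Sftpc, Sftpa1 and Sftpb. The others called lower were Sftpd, Slc34a2, Lamp3, Scd1, Lrat, Hc, Cbr2, Chi3l1, Hsd11b1, Dpep1, Aqp1, Inmt and Gsn. Sftpd is also a surfactant gene, and the paper uses Lamp3 as a marker of alveolar type II cells. Aqp1, Cbr2, Hc and Lamp3 had no read in Actc1-zero cells. Sftpd, Slc34a2, Hsd11b1, Lrat, Dpep1, Chi3l1 and Inmt had at most 2 in either sum. All of these passed the filter on low counts through the Acta2-under-9 cells, which fixed their direction. The number called lower is therefore a description. Sftpc had 2 and 18 reads in the Actc1-zero sums and 34434 and 1259942 in the Acta2-under-9 sums (adjusted p = 3.61e-05 by edgeR), from 6 of 13 and 13 of 22 cells. Epithelial markers summed to over 100 TPM in 6 and 7 of the Acta2-under-9 cells and reached 458164 and 405786 TPM. The paper reports a small cluster with epithelial markers, Sftpc among them, in its Lgr5- and Lgr6-sorted cells. Whether these wells held epithelial cells or their RNA was not tested. Inmt, a methyltransferase of lung fibroblasts, had 1 and 2 reads against 14210 and 163206, and 94.7% of its Acta2-under-9 reads in mouse 1 came from 1 cell. Of 11 alveolar fibroblast genes tested, 7 were lower at an unadjusted p under 0.05, beside 5.05% of all genes. Of these, Tcf21, Vcam1, Cd34, Col13a1 and Bmp7 had no read in Actc1-zero cells. They and Inmt passed the filter on low counts through the Acta2-under-9 cells, which fixed their direction, so the count is a description. Gsn fell by 2.35 on the log2 scale (SE 0.26, adjusted p = 0.0243 by edgeR), with 91.9% of its Acta2-under-9 reads in mouse 1 from 1 cell. Its call was lost by DESeq2 (adjusted p = 0.39) and by edgeR without the block (adjusted p = 0.326). Mgp gave -0.61 (unadjusted p = 0.0705), and of the immediate early genes 1 of 15 was under the unadjusted threshold, with a median of 0.14.

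Among themselves the Actc1-zero cells spanned a wider range than the Actc1-detected cells. Of the 16 contractile genes, Actc1-detected cells had reads of 12 to 16 in mouse 1 and 13 to 16 in mouse 2, with medians of 15. Actc1-zero cells had 6 to 15 and 4 to 15. Within the Actc1-zero cells this number had a rho of 0.70 and 0.58 with Acta2 and of -0.11 and 0.24 with depth, over 15 and 20 cells, each set from 1 animal. Cnn1 was above 0 in 3 and 6 of them, and of those 9 cells 1 and 2 also had over 100 TPM of adventitial genes. The 3 cells with Actc1 above 0 and under 1, which had Mgp of 13.59 to 14.15, had Cnn1 of 8.37, 0 and 9.46.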

How the data were processed

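The authors pseudo-aligned the paired reads with kallisto 0.43.0 to mm10, after bcl2fastq 2.17.1.14 per the labels, and deposited counts of reads per gene (whole-number estimates) and log2(TPM + 1) values for all wells. The annotation release is not given in the sources used here. The authors also deposited the log2(TPM + 1) values of the cells kept by their filter (on genes detected, housekeeping genes, the reporter, Ptprc and Pecam1), and a score, counts scaled to a common depth, used here in 1 alternative. The 2 tables of log2 values were equal for the kept cells. The 8 columns of pools were not used.

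Counts were summed per mouse and group. edgeR 4.0.16 (TMM, filterByExpr, glmQLFit, glmQLFTest) was fitted in R 4.3.3 with the mouse as a block, and p-values were adjusted by Benjamini-Hochberg over all genes tested. Acta2 and Actc1 stayed in the library sizes and were left out of the tests. SE is the absolute log2 fold change over the root of F. Both groups come from the same 2 animals, which is why the block was in the main fit. Sums held 7675919 to 48817899 reads, and counting intervals cover counting error only. Per-cell detection means at least 1 read, and no doublet caller was run, since cells were sorted singly. The scripts were tested on simulated data. Alternatives were DESeq2 1.42.0, limma 3.58.1 on log2(CPM + 1) of scaled sums and on mean log2(TPM + 1) per mouse, other scalings and filters, cells thinned to 89000 reads, other limits on Acta2 and Actc1, removed wells added, and each mouse left out. Coordinates are from GENCODE vM21 on GRCm38, the build mm10.

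Genes were named by rule: a fixed set, the 4 most abundant members of each of 18 lists, the 10 with the lowest p in each direction among those with the same direction in both mice, and the 10 most like Actc1. Other genes, among them list members under the unadjusted threshold and those called by an alternative, were named after their values were seen. The values of 1 list member are not reported here. The members and lists were chosen with earlier results of these data known.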

Additional observations from a re-analysis of the deposited data

How the results depend on the processing

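The counts of genes higher and lower in Actc1-detected cells at the adjusted threshold depended on the test. Against 0 and 0 by edgeR they were 389 and 244 by DESeq2, 7 and 3 by limma on scaled counts, 17 and 1 by limma on mean log2(TPM + 1), and 16 and 8 on thinned cells, and 0 and 0 under every other setting run with a test. The cause was not tested. The replicate block, which pairs the groups by mouse, was left out in one setting, which gave 0 and 0, and 0 and 6 in place of 1 and 16 for Actc1-zero against Acta2-under-9 cells. DESeq2 gave 196 and 599 for the latter. With Acta2 of at least 11 the share with Actc1 in mouse 2 was 73.7%.

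Of 93 named genes tested, 71 kept their sign under every one of the 18 settings that gave them a value (thinned cells and Acta2 of at least 11 left some genes untested), and 22 changed it in 41 of 1658 values. The log2 fold changes with the other sign were, by limma on mean levels, Actg1 0.0595, Bgn -0.0709, Ednrb 1.26, Mbp -0.0172, Ptch1 0.81 and Ryr2 -0.11. By limma on scaled counts they were Ednrb 0.26, Ryr2 -0.72 and Sftpb 0.64. On thinned cells they were Ces1d 0.55, Ednrb 0.37, Ptch1 0.0158, Ryr2 -0.78 and Tgfbi -0.21. With Acta2 of at least 11 they were Actn2 0.84, Atf3 0.0674, Btg2 0.47, Lgr5 0.34, Socs3 0.0087 and Tgfbi -0.22, and with at least 10 Ces1d 1.89 and Tgfbi -0.0305. Ces1d was at 2.31 without the replicate block and 0.32 with the third group in the fit, and Tgfbi at -0.12 with library sizes.

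Leaving out either mouse left no test. The 2 values then ran from -0.0419 to 0.55 for Aspn, -0.16 to 0.57 for Bgn, -1.55 to 0.45 for Btg2, 0 to 4.07 for Cd68, -9.60 to 5.31 for Ces1d, -0.50 to 0.19 for Ednrb, -0.16 to 5.84 for Gucy1a3 and -0.24 to 13.24 for Limch1. They ran from -7.11 to 6.07 for Lyz2, -0.20 to 2.36 for Mbp, -0.84 to 6.70 for Npnt, -10.43 to 2.35 for Pdgfra, -0.0698 to 2.68 for Plin2, -1.41 to 0.83 for Ptch1, -1.01 to 0.0443 for Sftpb and -0.18 to 0.34 for Tgfbi. With 2 mice and the mouse as a block, p-values rest on how far the group difference varies between these 2 animals only. The tests combine this with a spread estimated over all genes. Depth limits genes with few reads, such as Lgr5, Pdgfra and Nog.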
